A study of Rattus norvegicus with 8 samples.

Results

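The insulin-like growth factors (IGFs), their receptors, their binding proteins and the imprinted gene Dlk1 were followed in embryonic rat forebrain and hindbrain. The genes were chosen by name, as Igf1, Igf2, Igf1r, Igf2r, Igfbp2, Igfbp3, Igfbp4, Igfbp5, Igfbp6 and Dlk1, and every probe set that the platform annotation assigns to exactly 1 of these symbols was taken. Of the 10 genes, 9 had such a probe set, with 24 probe sets of the 8799 in the table, which carry 4737 distinct symbols. Igfbp4 was not analysed here. The 24 probe sets comprised 11 for the ligands, 3 for the receptors, 9 for the binding proteins and 1 for Dlk1. RNA came from E12.5 embryos in 4 groups of 2 arrays: Pax6 homozygous forebrain, wild-type forebrain, Pax6 homozygous hindbrain and wild-type hindbrain. The series asks which genes lie downstream of Pax6, a transcription factor needed for forebrain, eye and nose development, and the labels name neither the Pax6 allele nor the rat strain. The tissue rostral to the forelimbs was cut in 2 at the isthmus. The forebrain piece therefore carried the early eye, the early nose and the midbrain, and the hindbrain piece carried the pharyngeal arches. The labels do not say whether embryos were pooled for an array.

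Igf1 and Igf2 are secreted growth factors that act mainly through Igf1r, a receptor tyrosine kinase, to drive growth and survival of embryonic cells. Igf2r, the mannose 6-phosphate receptor, takes Igf2 up for degradation, and the Igfbps hold IGFs in the extracellular space and either limit or prolong their action. Dlk1 is a transmembrane protein with EGF-like repeats, related to the Notch ligand Delta, that restrains differentiation of several cell types and, like Igf2, is made from the paternal allele. The arrays did not separate parental alleles.

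For 4 of these genes at least 1 probe set differed between forebrain and hindbrain past the test described below. Dlk1 and Igfbp2 were higher in forebrain, and Igfbp3 and 1 of the Igf2 probe sets were lower. The differences of that Igf2 probe set and of 1 Igfbp3 probe set no longer passed under several alternative settings given below. The promoters of these 4 genes are shown because of those differences. Each runs from 250 bases before to 50 bases after a transcript start in RefSeq (build GRCr8), and Igf2 has 2 starts there. Capitals mark the GC box GGGCGG, searched on both strands and present in 33.1% of 33469 rat promoters of this length. The regions are chr6:134192347-134192646 on the plus strand for Dlk1, chr9:81864561-81864860 on the plus strand for Igfbp2, chr14:86277895-86278194 on the minus strand for Igfbp3, and chr1:207250426-207250725 and chr1:207253931-207254230 on the minus strand for the first and second Igf2 start.
Dlk1: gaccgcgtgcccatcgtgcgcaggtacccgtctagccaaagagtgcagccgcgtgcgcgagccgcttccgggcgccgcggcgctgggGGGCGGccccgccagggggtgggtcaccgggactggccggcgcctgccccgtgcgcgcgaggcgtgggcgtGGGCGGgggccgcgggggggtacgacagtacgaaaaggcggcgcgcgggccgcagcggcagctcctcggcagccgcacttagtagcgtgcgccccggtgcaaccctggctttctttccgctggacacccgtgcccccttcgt
Igfbp2: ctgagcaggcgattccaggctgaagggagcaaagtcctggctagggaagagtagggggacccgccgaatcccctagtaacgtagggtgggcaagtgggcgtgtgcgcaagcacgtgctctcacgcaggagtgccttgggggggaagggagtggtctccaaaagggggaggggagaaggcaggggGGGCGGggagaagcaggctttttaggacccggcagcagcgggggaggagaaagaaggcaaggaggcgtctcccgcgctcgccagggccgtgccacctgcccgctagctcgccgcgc
Igfbp3: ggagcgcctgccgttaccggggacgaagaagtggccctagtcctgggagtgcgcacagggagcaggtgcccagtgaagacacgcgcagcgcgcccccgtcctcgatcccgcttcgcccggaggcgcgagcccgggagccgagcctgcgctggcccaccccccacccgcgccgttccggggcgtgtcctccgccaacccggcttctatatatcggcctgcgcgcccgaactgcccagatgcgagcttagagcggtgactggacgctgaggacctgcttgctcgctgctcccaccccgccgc
Igf2 first start: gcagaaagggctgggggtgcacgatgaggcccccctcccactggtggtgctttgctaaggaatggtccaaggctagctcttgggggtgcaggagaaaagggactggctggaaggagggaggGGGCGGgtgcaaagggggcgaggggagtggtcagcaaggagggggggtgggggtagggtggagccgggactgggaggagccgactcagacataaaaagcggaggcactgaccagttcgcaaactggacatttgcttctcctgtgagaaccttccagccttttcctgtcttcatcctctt
Igf2 second start: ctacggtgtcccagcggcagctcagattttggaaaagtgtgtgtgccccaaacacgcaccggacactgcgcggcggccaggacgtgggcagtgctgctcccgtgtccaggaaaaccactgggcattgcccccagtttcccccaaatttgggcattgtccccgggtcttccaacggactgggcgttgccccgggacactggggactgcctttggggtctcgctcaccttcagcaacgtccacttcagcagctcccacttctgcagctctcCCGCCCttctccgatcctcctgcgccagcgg
The Dlk1 window held 2 GC boxes, the Igfbp2 window 1, each Igf2 window 1 and the Igfbp3 window 0. Its G and C content was 76% for Dlk1, 66.7% for Igfbp2, 71.7% for Igfbp3, 60.7% for the first and 63.3% for the second Igf2 start, against a median of 51.7% over all promoters. The letters TATAAA, searched on both strands and present in 14.2% of the promoters, were found in 0 of the 5 windows. These matches describe the sequence and were not tested for function.

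A probe set whose name ends in _s_at has probes that can match several transcripts. Intensities are the deposited values in arbitrary units, and levels of different probe sets are not comparable with each other. A noise level was taken for each array as the size of its 5th percentile (243 to 619.8 over the 8 arrays), since 18.3% to 22.3% of the values of an array were negative. Of the 24 probe sets, 13 exceeded noise on all 8 arrays, 5 on some and 6 on no array. The 18 probe sets that passed the filter on dim values, from 8 genes, were tested among 5881 with limma, and a probe set is called where its Benjamini-Hochberg adjusted p over all 5881 was under 0.05. The fatty acid binding protein Fabp7, a progenitor gene known to depend on Pax6, was lower in Pax6 homozygous tissue (log2 difference -2.81 in forebrain and -3.72 in hindbrain, limma adjusted p = 0.00577 and 0.000558). The Pax6 probe set did not pass the test (0.30 and 0.80), which does not check the genotype where the allele is not named. Arrays of a group correlated at r = 0.899 to 0.947. With 2 arrays a group, their number limits every value. Nothing in the labels ties the arrays of a group to separate animals or litters, so the p-values below speak for the spread among arrays alone. Fewer cells making a transcript and less transcript per cell cannot be told apart in such pieces of tissue, here or below.

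Forebrain and hindbrain were compared first. Averaged over both genotypes, 7 of the 18 tested probe sets were called between forebrain and hindbrain, against 1.51% of all probe sets tested. The 7 belong to 4 genes, and probe sets of the same gene are not separate results. The members were chosen with earlier results of these data known, so the shares here and below are a description. The 4 called higher in forebrain (0.289% of all) were Dlk1 and the 3 probe sets of Igfbp2, and the 3 called lower in forebrain (1.22% of all) were both probe sets of Igfbp3 and 1 of Igf2. The same probe sets were those whose 4 forebrain arrays did not overlap the 4 hindbrain arrays, 4 upward against 2.28% of all and 3 downward against 4.37% of all. Igf1, both receptors and Igfbp5 had no called probe set. The median log2 difference, forebrain minus hindbrain, was -0.27 over the 18 and -0.02 over all probe sets tested.

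**Figure D1:**
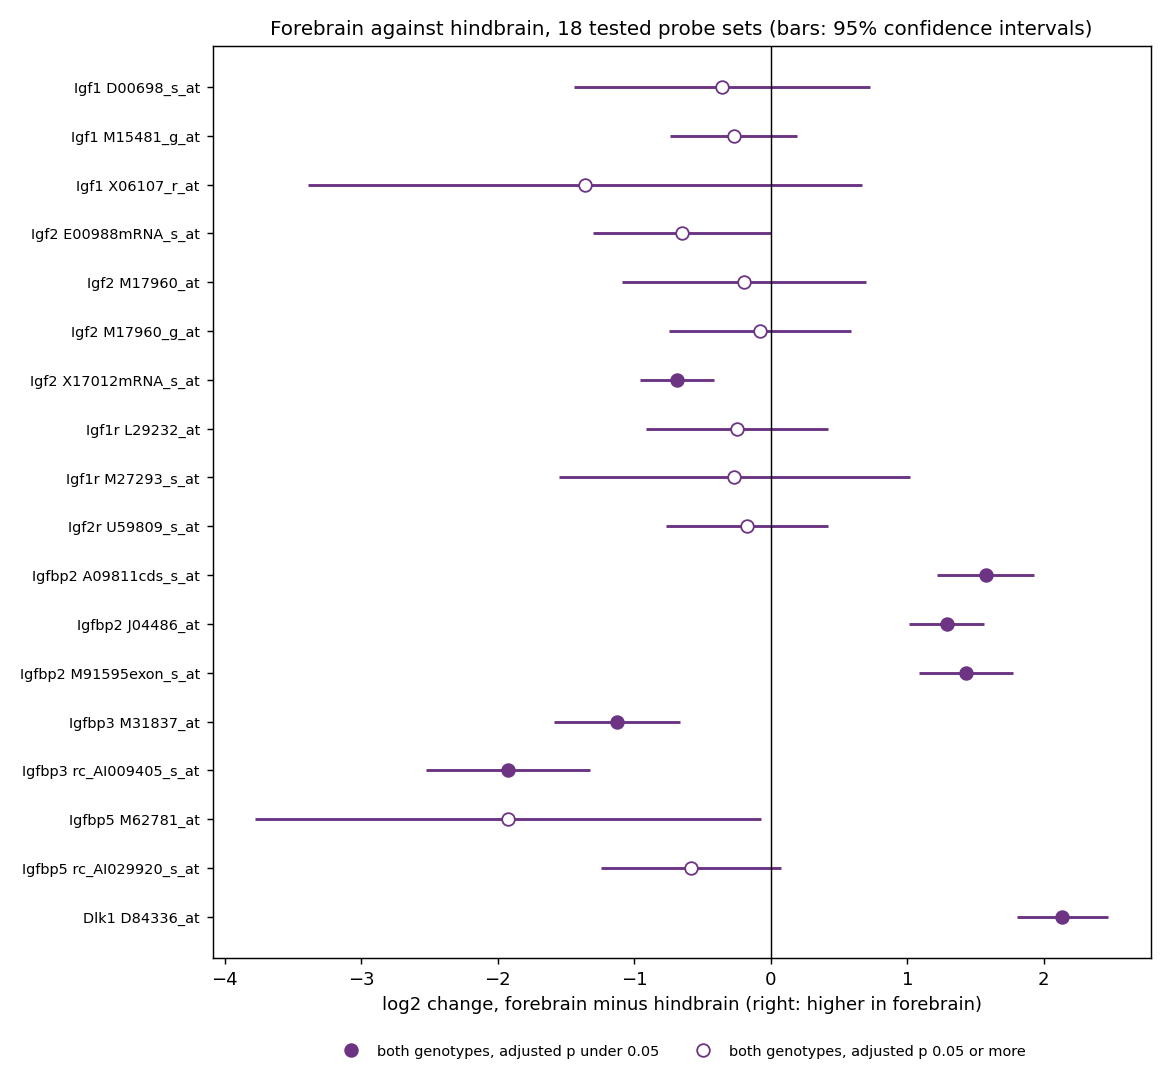
Log2 difference between forebrain and hindbrain, averaged over genotypes, for the 18 tested probe sets, with points to the right higher in forebrain, bars showing 95% confidence intervals and filled points showing an adjusted p under 0.05. Dlk1 (2.14) and the 3 probe sets of Igfbp2 (1.29 to 1.57) lie right of 0, and Igf2 X17012mRNA_s_at (-0.69) and both probe sets of Igfbp3 (-1.13 and -1.92) lie left of it.

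Igf2, the main fetal IGF, was lower in forebrain by its brightest probe set (X17012mRNA_s_at). This probe set read 15748 and 21355 in Pax6 homozygous forebrain, against 14508 and 16709 in wild-type forebrain, with 25662 and 25854 in Pax6 homozygous hindbrain, against 29517 and 27870.4 in wild-type hindbrain. All 4 forebrain arrays lay below all 4 hindbrain arrays. Forebrain averaged 17079.9 ± 2989 and hindbrain 27226 ± 1825 (mean ± SD, n = 4 arrays each), a log2 difference of -0.69 ± 0.12 (SE) and 1.61-fold lower in forebrain (limma, adjusted p = 0.0258). The groups ranked wild-type hindbrain, Pax6 homozygous hindbrain, Pax6 homozygous forebrain and wild-type forebrain from high to low. No neighbours in this order differed past the threshold, since the region difference within Pax6 homozygous embryos was not called either. Within the arrays numbered first the region difference was -0.87, and within those numbered second it was -0.51.

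The Igf2 call was narrow. It ended when wild-type forebrain replicate 1 was left out (adjusted p = 0.0731), and likewise for Pax6 homozygous forebrain replicate 1 (0.0669), wild-type hindbrain replicate 1 (0.0973) or 2 (0.0843), and Pax6 homozygous hindbrain replicate 1 (0.0988) or 2 (0.127). It held without either of the other two arrays, and the log2 difference stayed between -0.80 and -0.58. It also ended with a higher floor (0.0915), without the filter on dim values (0.125) and without the intensity trend (0.186).

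The other Igf2 probe sets did not repeat this difference past the threshold. E00988mRNA_s_at read 653 and 611 in Pax6 homozygous forebrain, against 1185 and 583 in wild-type forebrain, with 1094 and 1079 in Pax6 homozygous hindbrain, against 1339 and 1059 in wild-type hindbrain. Only wild-type forebrain replicate 1 reached the hindbrain range, and the log2 difference was -0.65 ± 0.28 (limma, adjusted p = 0.614). M17960_g_at ranged from 1163 to 2187 in forebrain and from 1202 to 2340.3 in hindbrain, with a log2 difference of -0.08 ± 0.29. M17960_at, from the same transcript sequence, ranged from 425 to 879 in forebrain and from 462 to 979 in hindbrain (-0.20 ± 0.39). For both M17960 probe sets the regions overlapped on most of their range. X16703_i_at and X16703_r_at exceeded noise on no array and were not tested. Across the 8 arrays, log2 values of X17012mRNA_s_at correlated with those of E00988mRNA_s_at at r = 0.523, with M17960_at at r = -0.002 and with M17960_g_at at r = -0.157, while the M17960 pair correlated at r = 0.909. The regional difference of X17012mRNA_s_at passed the test in neither M17960 probe set.

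Igf1, the ligand that carries most growth hormone action after birth, was read above noise on every array by 1 of its 5 probe sets. M15481_g_at read 2123 and 2790.3 in Pax6 homozygous forebrain, against 1739 and 2379 in wild-type forebrain, with 3008 and 2333 in Pax6 homozygous hindbrain, against 2342 and 3176 in wild-type hindbrain. The regions overlapped, and the log2 difference was -0.27 ± 0.20 (adjusted p = 0.880, limma), with a 95% confidence interval of -0.74 to 0.19. D00698_s_at ranged from 168 to 229.9 in forebrain, where it exceeded noise on no array, and from 172 to 349 in hindbrain, where it exceeded noise on 2 arrays. X06107_r_at read 1934 and 535 in Pax6 homozygous hindbrain, the only arrays on which it exceeded noise. It was negative on 5 of the other 6 arrays and read 519.5 in wild-type forebrain replicate 1. M15481_at and X06107_i_at exceeded noise on no array and were not tested.

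Igf1r, the signalling receptor, did not differ by region past the threshold. L29232_at read 1596 and 1752 in Pax6 homozygous forebrain, against 1670.1 and 1006 in wild-type forebrain, with 2297 and 1164 in Pax6 homozygous hindbrain, against 2341 and 1493 in wild-type hindbrain. The first array of each genotype's hindbrain lay above all forebrain arrays and the second lay within their range, and the log2 difference was -0.25 ± 0.29 (limma, adjusted p = 0.982; 95% confidence interval -0.91 to 0.42). M27293_s_at ranged from 179 to 613 in forebrain and from 248 to 643 in hindbrain and exceeded noise on 4 of 8 arrays (-0.27 ± 0.56).

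Igf2r, which clears Igf2, read 4005 and 7072 in Pax6 homozygous forebrain, against 3299 and 4788 in wild-type forebrain, with 5502 and 6123 in Pax6 homozygous hindbrain, against 3362 and 6402 in wild-type hindbrain (U59809_s_at). In Pax6 homozygous forebrain and in wild-type hindbrain the 2 arrays lay further apart than any 2 of the 4 group means, and the regions overlapped. The log2 difference between regions was -0.17 ± 0.26 (limma, adjusted p = 0.999; 95% confidence interval -0.77 to 0.42), so differences of up to about that size in either direction were within the error.

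Igfbp2, the binding protein made in quantity by embryonic neuroepithelium, was 2.44-fold to 2.98-fold higher in forebrain by 3 probe sets. J04486_at read 21221 and 23746 in Pax6 homozygous forebrain, against 19869 and 24214 in wild-type forebrain, with 9664 and 10339.9 in Pax6 homozygous hindbrain, against 7392 and 9246 in wild-type hindbrain. Every forebrain array was above every hindbrain array, with forebrain at 22263 ± 2067 and hindbrain at 9160.3 ± 1262 (mean ± SD, n = 4 arrays each; log2 difference 1.29 ± 0.12, limma adjusted p = 0.000848). A09811cds_s_at read 18442 and 19648 in Pax6 homozygous forebrain, against 14249 and 21241 in wild-type forebrain, with 4858 and 6549 in Pax6 homozygous hindbrain, against 6767 and 6503 in wild-type hindbrain (1.57 ± 0.16, adjusted p = 0.00116). M91595exon_s_at read 11725 and 11755 in Pax6 homozygous forebrain, against 9950.2 and 14864 in wild-type forebrain, with 4179 and 4959 in Pax6 homozygous hindbrain, against 4206 and 4461 in wild-type hindbrain (1.43 ± 0.15, adjusted p = 0.00164). Both showed the same gap between regions with no overlap, and wild-type forebrain had the widest spread between its arrays in each. The 3 probe sets tracked each other over the 8 arrays (r from 0.951 to 0.985), and all 3 stayed called under each of 14 alternatives. For J04486_at the region difference was 1.28 within the arrays numbered first and 1.29 within those numbered second. Its groups ran from Pax6 homozygous forebrain through wild-type forebrain and Pax6 homozygous hindbrain to wild-type hindbrain, with no called difference between genotypes of a region.

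Igfbp3, the main carrier of IGFs in postnatal blood, went the other way. M31837_at read 1187 and 891 in Pax6 homozygous forebrain, against 892 and 969 in wild-type forebrain, with 1886 and 2362 in Pax6 homozygous hindbrain, against 2119 and 2195 in wild-type hindbrain. The regions did not overlap, and the probe set was 2.18-fold lower in forebrain (log2 difference -1.13 ± 0.20, limma adjusted p = 0.0292). rc_AI009405_s_at read 613 and 474 in Pax6 homozygous forebrain, against 249.5 and 333 in wild-type forebrain, with 1459 and 1310.3 in Pax6 homozygous hindbrain, against 1865 and 1403 in wild-type hindbrain. It exceeded noise on 2 of 4 forebrain arrays, both Pax6 homozygous, and on all 4 hindbrain arrays. It was called lower in forebrain, with a fitted log2 difference of -1.92 ± 0.26 (limma, adjusted p = 0.00779) that includes both wild-type forebrain arrays below their noise and is -1.51 with the floor at the pooled median. Within wild-type embryos, where no forebrain array exceeded noise, it was at least 3.67-fold lower in forebrain.

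The 2 Igfbp3 probe sets correlated at r = 0.945 over the 8 arrays, and neither changed direction under any alternative. The call on M31837_at ended when any 1 of the 8 arrays was left out (adjusted p from 0.0562 to 0.189), with quantile normalization (0.0526) and with a higher floor (0.0611). The call on rc_AI009405_s_at ended without Pax6 homozygous hindbrain replicate 1 (0.0583) or 2 (0.0518) and held under the other 12 alternatives. Within the arrays numbered first the region difference was -0.96 for M31837_at and -2.08 for rc_AI009405_s_at, and within those numbered second it was -1.29 and -1.77.

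Igfbp5, a binding protein known from muscle and bone, had 1 probe set above noise on every array. rc_AI029920_s_at read 3514 and 1953 in Pax6 homozygous forebrain, against 4497 and 2229 in wild-type forebrain, with 4754 and 3868 in Pax6 homozygous hindbrain, against 5497 and 3409.5 in wild-type hindbrain. Forebrain averaged lower, but the first forebrain array of each genotype lay inside the hindbrain range and the log2 difference was -0.58 ± 0.29 (limma, adjusted p = 0.682). M62781_at exceeded noise on 2 hindbrain arrays and on no forebrain array, and its difference also failed the test (adjusted p = 0.590). rc_AI070577_at was negative on every array. Igfbp6, which binds Igf2 in preference to Igf1, ranged from -166 to 115 in forebrain and from 36.7 to 158 in hindbrain (M69055_at) and exceeded noise on no array, so its level was not measurable with this probe set.

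Dlk1 showed the widest regional difference of the family among the probe sets above noise on all arrays. D84336_at read 16964 and 17028 in Pax6 homozygous forebrain, against 15412 and 16846 in wild-type forebrain, with 4166 and 3007 in Pax6 homozygous hindbrain, against 3543 and 4533 in wild-type hindbrain. The lowest forebrain array was more than 3 times the highest hindbrain array. Forebrain averaged 16562 ± 770.5 and hindbrain 3812 ± 674 (mean ± SD, n = 4 arrays each), which is 4.39-fold higher in forebrain (log2 difference 2.14 ± 0.15, limma adjusted p = 0.000101). By p-value it ranked 13 and by signed change 15 among the 5881 probe sets tested in this comparison. From high to low the groups ran Pax6 homozygous forebrain, wild-type forebrain, wild-type hindbrain and Pax6 homozygous hindbrain, and within each region the neighbours did not differ past the threshold. The difference held under each of 14 alternatives, between 2.02 and 2.25, and was 2.07 within the arrays numbered first and 2.20 within those numbered second.

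**Figure D2:**
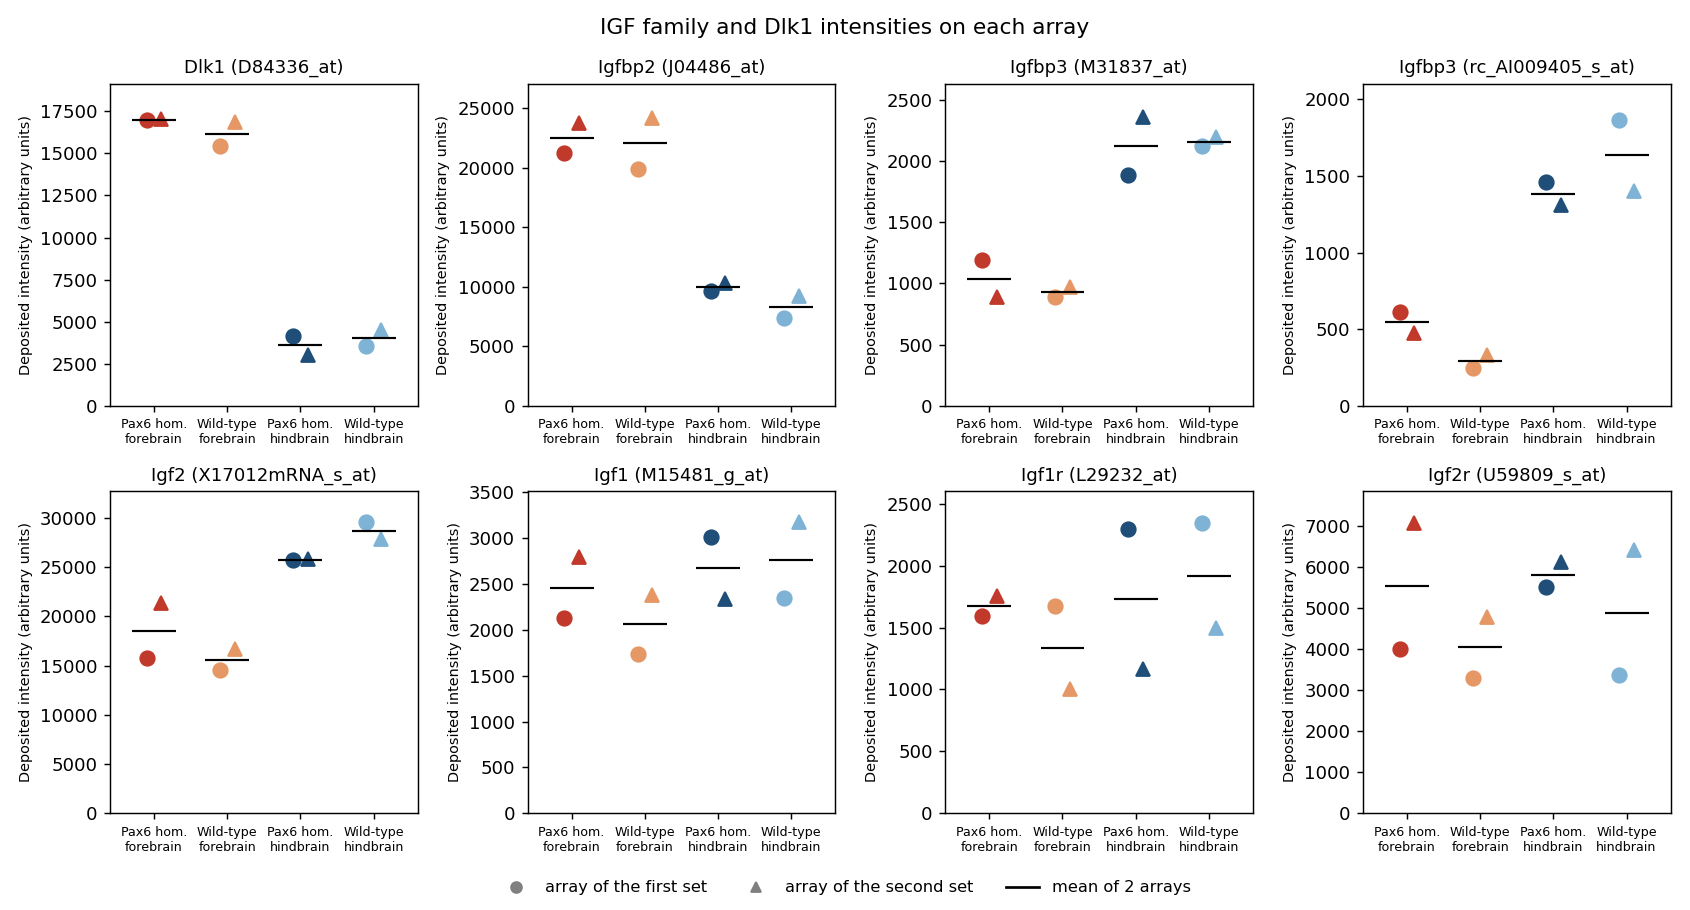
Deposited intensity (arbitrary units, linear axes from 0) on each of the 8 arrays for 8 probe sets of the family, with circles for arrays numbered first, triangles for arrays numbered second and lines at the mean of 2 arrays. Dlk1 and Igfbp2 J04486_at sit high in both forebrain groups, Igfbp3 and Igf2 X17012mRNA_s_at sit high in both hindbrain groups, and Igf1, Igf1r and Igf2r overlap between regions.

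Taken within each genotype, with the spread still estimated over all 8 arrays, the region calls were fewer. In Pax6 homozygous embryos 4 of 18 were called, against 0.459% of all, and all were higher in forebrain (0.136% of all). They were Dlk1 (4.80-fold, limma adjusted p = 0.00156) and the 3 Igfbp2 probe sets (2.25-fold to 3.37-fold). In wild-type embryos 5 of 18 were called, against 0.782% of all. The 4 higher in forebrain (0.204% of all) were Dlk1 (4.02-fold, adjusted p = 0.00263) and Igfbp2 (2.62-fold to 2.81-fold), and the 1 lower (0.578% of all) was Igfbp3 rc_AI009405_s_at (adjusted p = 0.0186). Igf2 X17012mRNA_s_at differed by -0.49 in Pax6 homozygous embryos (adjusted p = 0.547) and by -0.88 in wild-type embryos (adjusted p = 0.0699). The wild-type difference was called when Pax6 homozygous forebrain replicate 1 (0.0341) or 2 (0.0354) was left out of the fit and with quantile normalization (0.0421). Dlk1 stayed called in both genotypes when any 1 array was left out. In Pax6 homozygous embryos only 1 of the 4 stayed without Pax6 homozygous forebrain replicate 1 or 2 or Pax6 homozygous hindbrain replicate 1, and 2 stayed without Pax6 homozygous hindbrain replicate 2. In wild-type embryos 3 were called when wild-type forebrain replicate 2 was left out, 1 when wild-type hindbrain replicate 1 was and 2 when replicate 2 of the same group was. The Igfbp3 call in wild-type embryos also ended without wild-type forebrain replicate 1 or either Pax6 homozygous hindbrain array.

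Between genotypes no member of the family was called. In forebrain 0 of 18 probe sets passed (0.017% of all) and 1 had an unadjusted p under 0.05 (2.92% of all). In hindbrain 0 passed (0.017% of all) and 1 had such a p (4.49% of all). Averaged over both regions 0 passed (0.034% of all) and 0 had such a p (5.02% of all). The Pax6 homozygous arrays did not overlap the wild-type arrays for 4 probe sets in forebrain, against 23% of all, and for 3 in hindbrain, against 34.5% of all. As Pax6 homozygous minus wild-type, the median log2 difference was 0.07 in forebrain and -0.02 in hindbrain over the 18, and 0.01 and 0.04 over all probe sets tested.

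**Figure D3:**
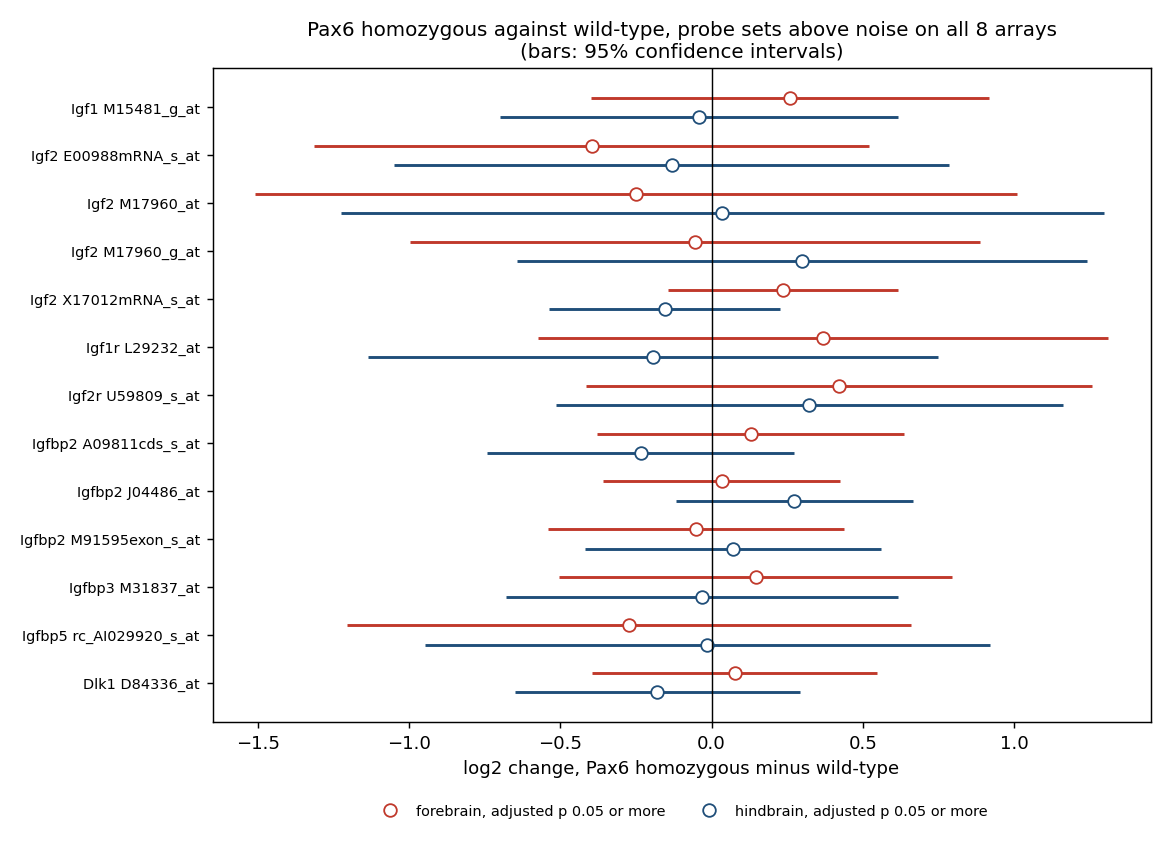
Log2 difference between Pax6 homozygous and wild-type for the 13 probe sets above noise on all 8 arrays, with forebrain in red, hindbrain in blue and bars showing 95% confidence intervals. Every interval crosses 0, and the intervals of Dlk1, Igf2 X17012mRNA_s_at and Igfbp2 are the narrow ones.

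The interval of each gene shows how large a genotype difference these arrays leave room for. For Dlk1 the log2 difference was 0.08 ± 0.21 in forebrain (95% confidence interval -0.39 to 0.55) and -0.18 ± 0.21 in hindbrain (-0.65 to 0.29). For Igf2 X17012mRNA_s_at it was 0.24 ± 0.17 in forebrain (-0.15 to 0.62) and -0.16 ± 0.17 in hindbrain (-0.54 to 0.23). Both Pax6 homozygous hindbrain arrays of this Igf2 probe set lay below both wild-type ones, and the forebrain arrays overlapped. For Igfbp2 J04486_at it was 0.03 ± 0.17 in forebrain (-0.36 to 0.42) and 0.27 ± 0.17 in hindbrain (-0.12 to 0.66), where the genotypes did not overlap. The other Igfbp2 probe sets differed by -0.23 (A09811cds_s_at) and 0.07 (M91595exon_s_at) in hindbrain, with overlapping genotypes. Igf2r was 0.42 ± 0.37 in forebrain and 0.32 ± 0.37 in hindbrain, and 0.37 ± 0.26 over both (limma, adjusted p = 0.928; -0.22 to 0.96). The Igf1r probe set L29232_at was 0.37 ± 0.41 in forebrain and -0.19 ± 0.41 in hindbrain. For a single region the median half-width of these intervals over the 18 probe sets was 0.88.

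The single unadjusted p under 0.05 in forebrain was that of Igfbp3 rc_AI009405_s_at. It read 613 and 474 in Pax6 homozygous forebrain, against 249.5 and 333 in wild-type forebrain, a log2 difference of 0.90 ± 0.37 (limma adjusted p = 1). Both wild-type arrays were below noise, so the fold is given only as at least 1.22, and the other Igfbp3 probe set differed by 0.15 ± 0.28. Within the arrays numbered first the difference was 1.30 and within those numbered second it was 0.51. In hindbrain the single such p was that of Igf1 X06107_r_at, which exceeded noise only in Pax6 homozygous hindbrain. It read 1934 and 535 there, against -1147 and -969 in wild-type hindbrain (limma adjusted p = 0.989). Those negative values lay further from 0 than the noise levels of their arrays, so no fold is given. The brighter Igf1 probe set M15481_g_at differed by -0.04 ± 0.29.

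The genotype difference itself was also compared between regions. For this interaction 0 of 18 probe sets were called, against 0% of all, and 1 had an unadjusted p under 0.05, against 1.9% of all. That 1 was the dim Igf1 probe set X06107_r_at (limma adjusted p = 1.00). For the bright probe sets the forebrain minus hindbrain difference of genotype effects was 0.26 ± 0.29 for Dlk1, 0.39 ± 0.24 for Igf2 X17012mRNA_s_at and -0.24 ± 0.24 for Igfbp2 J04486_at. Their 95% confidence intervals all crossed 0, at -0.41 to 0.92 for Dlk1, -0.15 to 0.93 for Igf2 and -0.79 to 0.31 for Igfbp2.

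Genes that act with the family were read from lists of pathway members. Of 46 genes listed for insulin and IGF signalling, none of them in the family itself, 28 were tested. By region 0 were called, against 1.51% of all probe sets tested. By genotype 0 were called in either region (0.017% of all) or over both (0.034% of all). At such shares 0 calls in a list of this size is no result about the pathway. The median log2 difference of the 28 between regions was 0.01, with 14 higher and 14 lower in forebrain, against -0.02 over all probe sets tested. The smallest p by region belonged to Irs1, an adaptor beneath Igf1r and the insulin receptor. Irs1 read 575 and 467.5 in Pax6 homozygous forebrain, against 258 and 194 in wild-type forebrain, with 889.9 and 703 in Pax6 homozygous hindbrain, against 673 and 715 in wild-type hindbrain (log2 difference -1.12 ± 0.31, adjusted p = 0.184). The forebrain arrays were all below the hindbrain arrays but the test did not call it. Both wild-type forebrain arrays were below their noise for Irs1, so its log2 difference includes values below noise. Next by region were the kinase Map2k1 (-0.23 ± 0.12), the ribosomal protein Rps6 (0.14 ± 0.08) and the kinase Akt1 (0.41 ± 0.24). By genotype over both regions the smallest p were those of Map2k1 (0.45 ± 0.12, limma adjusted p = 0.801) and Rps6 (-0.19 ± 0.08, adjusted p = 0.928).

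Among other imprinted genes, 9 of 19 listed were tested. Nnat, an imprinted gene of the developing brain, was the 1 called by region (1.51% of all probe sets tested) and was 1.41-fold higher in forebrain. It read 66131 and 64216 in Pax6 homozygous forebrain, against 65579 and 73115 in wild-type forebrain, with 44281 and 45154 in Pax6 homozygous hindbrain, against 49776 and 52219 in wild-type hindbrain (log2 difference 0.49 ± 0.08, limma adjusted p = 0.0157). H19, the imprinted noncoding RNA that neighbours Igf2, read 22199 and 22769.6 in Pax6 homozygous forebrain, against 22981 and 25143 in wild-type forebrain, with 31059.7 and 32160.1 in Pax6 homozygous hindbrain, against 24089 and 33354 in wild-type hindbrain. Its difference had the same sign as that of Igf2 X17012mRNA_s_at but was not called (-0.36 ± 0.12, adjusted p = 0.295), and wild-type hindbrain replicate 1 overlapped forebrain. Ndn (0.29 ± 0.20) and Grb10, an adaptor that binds Igf1r (-0.17 ± 0.17), were not called either. By genotype 0 of 9 were called in either region (0.017% of all) or over both (0.034% of all). Over both, Nnat differed by -0.14 ± 0.08 and Plagl1, a zinc finger factor, by 0.18 ± 0.16.

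For the Notch pathway, to which Dlk1 is related by structure, 16 of 24 listed genes were tested. Of these 0 were called by region (1.51% of all) or by genotype (0.017% to 0.034% of all). In so short a list that is no result about the pathway. The smallest p by region were those of Hes1, a transcriptional target of Notch (0.50 ± 0.13, limma adjusted p = 0.135), the ligand Dll3 (-0.74 ± 0.22), the protease Adam10 (-0.64 ± 0.24) and the glycosyltransferase Mfng (0.48 ± 0.19). By genotype over both regions they were those of Adam10 (0.58 ± 0.24) and Notch1 (-0.35 ± 0.16), both with an adjusted p of 0.928. In the growth hormone axis 8 of 11 listed genes were tested. Somatostatin (Sst), which inhibits growth hormone release and is also made by neurons, was the 1 called by region (1.51% of all) and was lower in forebrain. It read 3678 and 2639 in Pax6 homozygous forebrain, against 2133 and 4041 in wild-type forebrain, with 13354 and 16130.1 in Pax6 homozygous hindbrain, against 16296 and 21661 in wild-type hindbrain (5.49-fold lower in forebrain, log2 difference -2.46 ± 0.22, adjusted p = 0.000660). Ghr, Stat5a and Ghrh were not called by region, with differences of 0.42 ± 0.50 for Stat5a and -0.29 ± 0.40 for Ghrh. The growth hormone receptor Ghr exceeded noise on 1 array, from wild-type hindbrain, so no regional or genotype value is given for it. By genotype over both regions Ghr (limma adjusted p = 0.928) and Prlr (-0.42 ± 0.38, adjusted p = 0.934) had the smallest p.

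The genes whose levels followed Dlk1 and Igf2 most closely were taken from 3243 genes, by the correlation of log2 values over the 8 arrays. These 8 arrays share their regions and genotypes, so the correlation is a description. For Dlk1 they were Lhx2 (r = 0.989), Fgf17 (0.987), Ptprz1 (0.969), Alx1 (0.968) and Igfbp2 (0.963). Fgf17 was negative on all 4 hindbrain arrays, so its log2 values there are the floor and its r rests on them. Lhx2, a homeodomain factor of the forebrain, ranged from 7768 to 8692 in forebrain and from 1444 to 1801 in hindbrain. Alx1, a homeodomain factor of head mesenchyme, ranged from 4692 to 7274 in forebrain and from 116 to 378 in hindbrain, where it exceeded noise on no array. For Igf2 X17012mRNA_s_at they were Cadps (0.970), Onecut1 (0.956), Ncam1 (0.952), Crmp1 (0.950) and Nefm (0.945). Onecut1 exceeded noise on 1 of 4 forebrain arrays and 3 of 4 hindbrain arrays, so its r rests in part on values below noise. Nefm, a neurofilament subunit of differentiated neurons, ranged from 2072 to 3765 in forebrain and from 17499.8 to 22237 in hindbrain. Cadps, a vesicle priming protein, ranged from 1023 to 1516 in forebrain and from 2154 to 2801 in hindbrain.

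Tissue markers moved with region as well. Forebrain and midbrain markers were called higher in forebrain for 3 of 5 tested (Lhx2, Nkx2-1 and Dlx5), against 0.289% of all probe sets tested. Of the 5, 4 were higher and 1 was lower. All 4 hindbrain and spinal cord markers tested were lower in forebrain, and 1 was called, against 1.22% of all. It was Hoxa5, which exceeded noise on no forebrain array. The called markers thus matched the labels of the 2 pieces. Skeletal and cardiac muscle markers were called lower in forebrain for 3 of 17 tested (Actc1, Acta1 and Myh3), against 1.22% of all. Of the 17, 15 were lower and 2 were higher. The summed intensity of the 19 muscle markers measured was 5478 to 10247 in forebrain and 32652 to 39043 in hindbrain, where Actc1 alone read 13746 to 17000. Sums here and below add unlike probe sets and follow the brightest, so they do not measure amounts of tissue. In forebrain 11 of the 19 exceeded noise on no array, Actc1 among them. Neuron markers were called lower in forebrain for 3 of 7 (Nefl, Nefm and Ina), against 1.22% of all, and all 7 were lower. Their sums were 23069 to 23671 in forebrain and 57921 to 84095 in hindbrain. Of 8 neural progenitor markers tested, 7 were lower in forebrain, with a median log2 difference of -0.35 against -0.02 over all probe sets tested. Fabp7 was the 1 called, against 1.22% of all called lower (log2 difference -1.72 ± 0.16, limma adjusted p = 0.000854). Of 6 liver and yolk sac markers tested, 2 were higher and 4 lower in forebrain. Ttr alone was called, lower in forebrain (1.22% of all). It exceeded noise on no forebrain array and read 5507 to 10649 in hindbrain. Apob exceeded noise on all 8 arrays and Rbp4 on 6, and neither was called by region. Afp, Apoa2, Fgb and Serpina1 exceeded noise on no array of either region, and which tissue gave the Ttr signal was not tested. Head and arch mesenchyme markers summed to 108735 to 124628 in forebrain and 104885 to 124560 in hindbrain. Of 16 tested, 7 were higher and 9 lower in forebrain, and Alx1 alone was called, higher in forebrain (0.289% of all). Blood markers summed to 142826 to 178113 in forebrain and 133906 to 161257 in hindbrain. All 6 tested were higher in forebrain, with a median log2 difference of 0.22 against -0.02 over all, and 0 were called (1.51% of all). The part of these tissues in the Igf2, Igfbp2, Igfbp3 and Dlk1 differences was not tested.

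Some members moved the same way between the arrays numbered first and second in all 4 groups, as did many other probe sets. Of the 13 probe sets above noise on all arrays, 3 were higher in the second array of all 4 groups and 4 were lower, where 13.5% and 25.6% of 3743 such probe sets were. Igf2r was higher in each second array by 0.15 to 0.93 on the log2 scale. The 2 other upward ones were Igfbp2 J04486_at (0.10 to 0.32) and M91595exon_s_at (0.00 to 0.58). Igfbp5 rc_AI029920_s_at was lower in each second array by values of -1.01 to -0.30, as were Igf2 M17960_at (-1.08 to -0.72), M17960_g_at (-0.91 to -0.49) and E00988mRNA_s_at (-1.02 to -0.02). Dlk1 and Igf2 X17012mRNA_s_at moved in both directions among the groups. The labels do not say what the numbers mark.

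**Figure D4:**
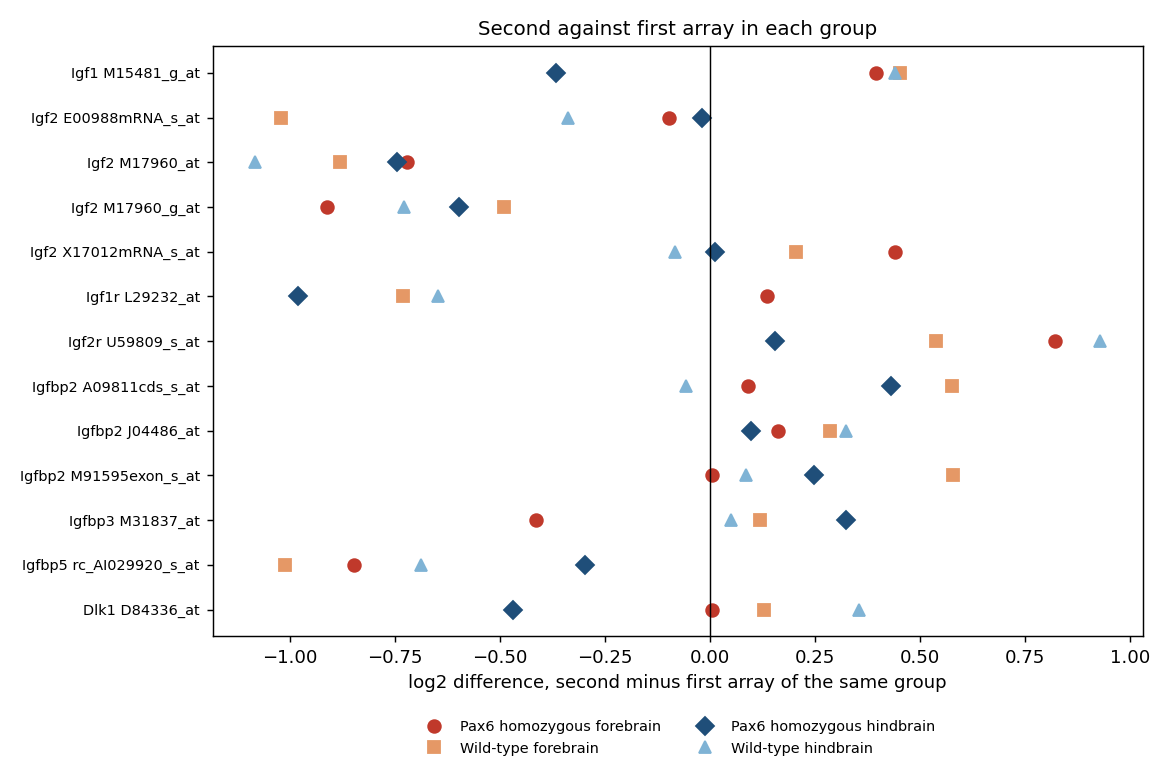
Log2 difference between the second and the first array of each group for the 13 probe sets above noise on all 8 arrays, with 1 symbol per group and points to the right higher in the second array. Igf2r lies right of 0 in all 4 groups, and Igfbp5 and 3 Igf2 probe sets lie left of 0 in all 4 groups.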

How the data were processed

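RNA from the 8 tissue samples was labelled and hybridised to 1-colour Affymetrix rat arrays, per the labels. Intensities are as deposited, with 1 value for each probe set in each sample. For the authors' software, summary algorithm and scaling, the sources used here give nothing. Trimmed means of the arrays ran from 2504.05 to 2504.79, so the scaling was kept. Probe sets were named from the platform annotation (1 symbol for 7018, several for 308, none for 1473 of 8799), and the gene IDs of all 24 member probe sets matched RefSeq.

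Values were raised to a floor of 45.9 (the pooled 25th percentile) and taken to log2. Probe sets were kept where 2 or more arrays exceeded 255, the pooled 40th percentile, and 59 controls were left out, leaving 5881. A model with 4 group means was fitted to all 8 arrays with limma 3.58.1 (R 4.3.3) and an intensity trend, with 4 residual and 4.63 prior degrees of freedom. Tests were two-sided with Benjamini-Hochberg adjustment over all 5881. Each adjusted p is limma's. The contrasts were region and genotype, each within and over the other factor, and their interaction. The pipeline was tested on simulated data. Where no array of the lower group exceeded noise, a fold is a bound from the higher of noise and signal.

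Every member probe set is named. From each pathway list the 4 genes with the smallest p by region and 2 by genotype over both regions are named, and for Igf2 and Dlk1 the 5 genes most alike. Each listed gene is read by 1 probe set. Lists of smooth muscle, pituitary and neural progenitor markers had 0 of 5, 0 of 2 and 1 of 8 tested genes called by region, against 1.51% of all probe sets tested. The 1 was Fabp7, lower in forebrain. The members and lists were chosen with earlier results of these data known. Alternatives changed the floor, filter, normalization, trend, arrays fitted and replicate block, and left out each array.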

Additional observations from a re-analysis of the deposited data

How the results depend on the processing

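With any 1 array left out, the count of called probe sets ran from 4 to 6 for region over both genotypes (4 without either Pax6 homozygous hindbrain array), from 1 to 4 in Pax6 homozygous and from 1 to 5 in wild-type embryos, against 7, 4 and 5 with all arrays. In Pax6 homozygous embryos it was 1 with the floor at the pooled median, 1 with no filter and 1 with no intensity trend. In wild-type embryos it was 3 with that floor, 0 with no filter, 2 with no trend and 2 with the contrast's arrays alone; with no filter Dlk1 there had an adjusted p of 0.0524 in limma. Genotype and interaction counts were 0 under every alternative. Samples share only the numbers first and second; deviations of same-numbered arrays correlated at r = 0.275 to 0.465. The replicate block gave 7, 4 and 6 calls for the 3 region comparisons and 0 for genotype and interaction; Igf2 X17012mRNA_s_at in wild-type embryos then had an adjusted p of 0.0394. Quantile normalization (0.0421) and leaving out either Pax6 homozygous forebrain array (0.0341 and 0.0354) also brought that call. The differences that changed sign were not called under any setting. For region these were Igf1r M27293_s_at (0.050 with the median floor; -0.71 to 0.18 with an array left out), Igf2 M17960_at (-0.47 to 0.075), Igf2 M17960_g_at (-0.31 to 0.15) and Igf2r (-0.41 to 0.058). For genotype they were Igf2r in hindbrain (-0.14 to 0.79), Igfbp2 J04486_at in forebrain (-0.11 to 0.18) and Dlk1 in hindbrain (-0.41 to 0.056). The causes were not tested.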
